A study of Mus musculus with 35 samples.

Results

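Whole lungs of 5 mice that had breathed styrene at 5 ppm were compared with those of 15 mice at 10, 20 and 40 ppm, 5 mice at each concentration. The 20 arrays were chosen by the concentration in their sample titles, out of 35 arrays in 7 groups, and the reference level was the mean of the 3 higher groups with equal weight. The remaining mice breathed clean air, 1 ppm or 120 ppm. All were adult male CD-1 mice, an outbred stock, bought from Taconic and housed alike, with no genotype given in the labels and no agent named other than styrene. The labels conflict on the exposure: the protocol describes a single exposure of 6 hours and the titles give 1 day, while the characteristics give 5 days. Lungs were taken on the morning after the last exposure, and each array held the RNA of 1 mouse.

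Styrene is a volatile monomer used in plastics. In the mouse lung it is oxidised mainly by Cyp2f2, a cytochrome P450 of the club cells that line the small airways, and the products are toxic to those cells, which divide during repair. Genes that report on such an exposure include the P450 enzymes, the antioxidant genes driven by NRF2 and the proliferation marker Mki67. Markers of the many other lung cells, from endothelium to ciliated cells, show where else levels differ. In whole lung, fewer cells of a type and less RNA per cell cannot be told apart.

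Values are log2 summaries of probe sets made with RMA, and each of 17097 genes is represented by its brightest probe set with a single symbol. A difference below is the mean of the 5 ppm mice minus the mean of the 3 higher groups, in log2 units, so that 1 unit is a 2-fold change, with its standard error from limma (n = 5 and 15). A gene counted as called where its p-value, adjusted for all 17097 genes (Benjamini-Hochberg), was under 0.05. The tissue label was borne out by lung markers: the mean log2 level at 5 ppm was 13.76 for Sftpc (surfactant protein of alveolar type 2 cells), 13.88 for Scgb1a1 (secretoglobin of club cells), 13.41 for Ager (alveolar type 1 cells), 10.07 for Cdh5 (endothelium) and 7.02 for Foxj1 (ciliated cells).

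The 5 ppm lungs differed from the lungs at 10 to 40 ppm in a large part of the measured transcriptome, while no gene passed the test between the 3 higher groups. Of 17097 genes, 7232 were called (42.3%), with 2306 higher at 5 ppm (13.5%) and 4926 lower (28.8%). The rises were the larger changes. At least 1.5-fold differences numbered 1353 for higher genes (7.91%) and 541 for lower genes (3.16%), and 2-fold differences numbered 573 and 7. The median difference over all genes was -0.12. All 5 mice lay above all 15 others for 1147 genes (6.71%) and below all 15 for 1178 genes (6.89%).

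Taken singly, the 10 ppm group differed from 5 ppm in 4658 genes (27.2%), the 20 ppm group in 6892 (40.3%) and the 40 ppm group in 5680 (33.2%). These 3 comparisons share the 5 ppm mice. Without 10 ppm mouse 4 the first of these counts was 3359. Between 10 and 20, 10 and 40, and 20 and 40 ppm limma called 0 genes (0%), against 1589, 411 and 983 at an unadjusted p under 0.05. A moderated F test among the 3 groups also called 0, with a lowest adjusted p of 0.102 and 1085 genes at an unadjusted p under 0.05. The 3 genes with the smallest p in that test were C130075A20Rik, Crip1 and Rpa3, whose differences between 5 ppm and the 3 groups were 0.18 ± 0.08, -0.10 ± 0.05 and -0.03 ± 0.07. The 120 ppm lungs, compared with 10 to 40 ppm in the same way, differed in 16 genes (0.0936%), and 5 ppm differed from 120 ppm in 3249 (19.0%).

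The 5 ppm arrays stood apart as whole arrays. An array axis was defined as the main direction in which mice of a single group varied, over all 45037 probe sets, and it held 17.4% of that variance. On it, in units of the SD over 35 arrays, the 5 ppm mice scored -1.36, -1.45, -1.46, -1.07 and -1.51. The 15 mice at 10 to 40 ppm scored between -0.81 and 0.61, so the groups did not overlap (exact permutation test over 15504 arrangements, two-sided p = 6.45e-05, the smallest it can give, adjusted over 4 array measures to 0.000129). The means were -0.44 at 10 ppm, -0.11 at 20 ppm, -0.22 at 40 ppm and -0.56 at 120 ppm, and air and 1 ppm lay at the other end with 1.30 and 1.40. The interquartile range of an array's values averaged 3.48 ± 0.051 (SD, n = 5) at 5 ppm and 3.40 ± 0.056 (SD, n = 15) at 10 to 40 ppm (exact permutation test, two-sided, adjusted p = 0.00722), and with a single probe set per gene its difference of 0.038 no longer passed. Correlations between arrays averaged 0.989 within 5 ppm, 0.973 between 5 ppm and 10 to 40 ppm and 0.988 between the 3 higher groups.

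**Figure D1:**
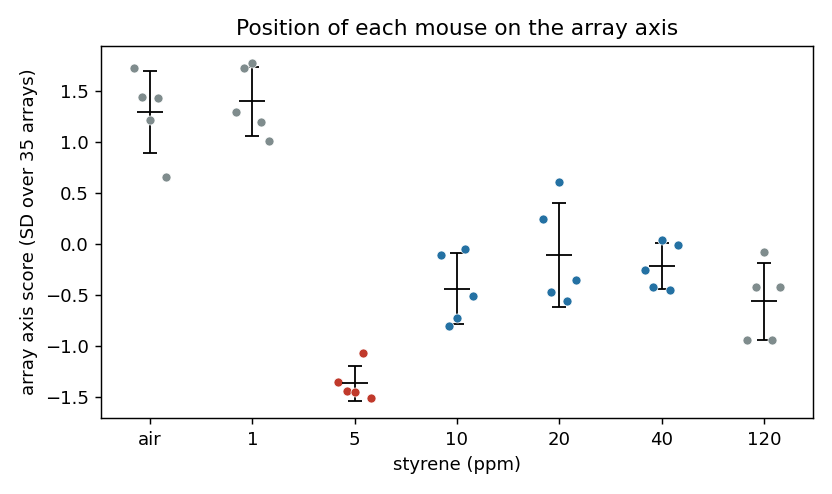
Score of each mouse on the array axis, in SD over the 35 arrays, by styrene concentration in ppm; points are mice and bars are means ± SD (n = 5). The 5 ppm mice (red) lie between -1.51 and -1.07, below every mouse at 10, 20 and 40 ppm (blue), while air and 1 ppm lie above them.

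Most of the calls were lost when this axis was taken into account. With the axis score as a covariate, 188 genes were called, 110 higher and 78 lower, of which 174 were also called without it in the same direction. Another 13 were called only with the axis. Slc12a2, named after its values were seen, was called at 0.55 without the axis and at -0.49 with it. Because the scores of the groups do not overlap, the fit with the axis extrapolates, and the median standard error rose from 0.11 to 0.15. An axis found in the other 30 arrays alone, so without the 5 ppm mice, gave 278 calls (chosen after seeing the data). Across 17097 genes, which are not independent replicates, the slope on that axis within the other 6 groups had a Pearson r of -0.78 with the difference between 5 ppm and 10 to 40 ppm. The slope was below 0 for 97.1% of the higher genes and for 37.1% of all genes. Whether the axis is a property of the RNA, the hybridisation or the lungs was not tested, so the lists below are given with their counts or medians in the fit with the axis too. With the interquartile range as the covariate instead, 5872 genes were called. The list counts below stand beside 13.5% of all genes called higher and 28.8% called lower. Counts in the fit with the axis stand beside 110 higher and 78 lower of all 17097 genes. A short list with no call in that fit is therefore near the share over all genes.

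**Figure D2:**
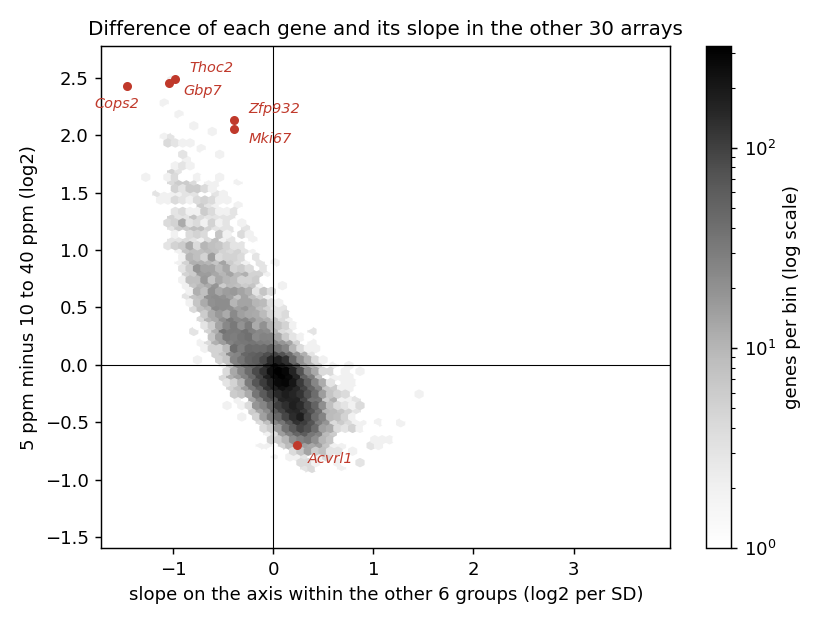
For each of 17097 genes, the difference between 5 ppm and 10 to 40 ppm (log2, vertical) against its slope on the array axis within the other 6 groups (log2 per SD, horizontal), as a density of genes on a log scale. The slope was below 0 for 97.1% of the genes called higher at 5 ppm and for 37.1% of all genes (Pearson r = -0.78 across genes). Mki67 and Zfp932 lie above the bulk of genes with like slopes.

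Mki67, which encodes the Ki-67 protein that coats mitotic chromosomes and marks dividing cells, had the lowest adjusted p of all genes. The 5 ppm mice had log2 levels of 5.89, 6.06, 6.09, 5.77 and 6.25. The 15 mice at 10 to 40 ppm had a lowest value of 3.66, a median of 3.82 and a highest of 4.39. The groups were separated by more than 1 log2 unit. The difference was 2.06 ± 0.13, or 4.16-fold (adjusted p = 6.17e-13), and with the axis as a covariate it was 1.58 (adjusted p = 4.93e-07). Group means elsewhere were 3.79 in air, 4.23 at 1 ppm and 4.07 at 120 ppm.

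Fewer than all mitosis genes were higher. Of 35 measured, 14 were higher and 1 lower, with a median of 0.08 beside -0.12 over all genes. Smc4, a condensin subunit that compacts chromosomes, had levels of 8.31, 8.63, 8.63, 8.12 and 8.55 at 5 ppm, against 5.35, 6.15 and 7.001 for the lowest, the median and the highest mouse at 10 to 40 ppm. Its difference was 2.29 ± 0.23 (adjusted p = 9.92e-09). Top2a, the topoisomerase that untangles sister chromatids, had levels of 5.42, 6.15, 6.08, 5.83 and 6.04, against 4.38, 4.78 and 5.37 for the lowest, the median and the highest mouse. Both genes had all 5 mice above all 15. Top2a was higher by 1.09 ± 0.13, Aspm (spindle poles) by 0.82 ± 0.10 and Cenpe (a kinetochore motor) by 0.34 ± 0.09. Cenpe was dim, with means of 3.66 and 3.33. Its levels of 3.27, 3.60, 3.72, 3.48 and 4.24 at 5 ppm overlapped the 3.19 to 3.54 of the 15. With each probe set tested alone, 1 of 3 was called for Aspm and 1 of 2 for Cenpe. The cyclin Ccnb2 and the survivin gene Birc5 were not called, with differences of -0.12 ± 0.13 and 0.07 ± 0.15. Aspm, Cenpe, Ccnb2 and Birc5 were named after their values were seen. With the axis, 4 of the 35 stayed called as higher, with a list median of 0.24, and Top2a, Aspm and Smc4 were at 0.81 (adjusted p = 0.0276), 0.77 (adjusted p = 0.00784) and 1.06 (adjusted p = 0.00561). Among 7 Smc genes, grouped by name after the values were seen, 5 were higher and 0 lower, among them Smc2 (condensin) at 1.64 and Smc5, of the complex that repairs stalled forks, at 2.03. With the axis Smc5 stayed called, at 1.01 (adjusted p = 0.0026), and Smc2 did not, at 0.80 (adjusted p = 0.0912).

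Interferon-inducible GTPases, which attack the vacuoles of microbes inside cells and are switched on by interferon, were higher in 10 of 12 measured members, with a median difference of 0.89. The size of the rise varied between the 5 ppm mice. Gbp7, a guanylate-binding protein, had levels of 8.41, 9.80, 8.68, 8.48 and 10.69, against 5.82, 6.53 and 7.87 for the lowest, the median and the highest mouse at 10 to 40 ppm. Mice 2 and 5 were highest, and all 5 lay above the 15. Iigp1, an immunity-related GTPase, had levels of 8.13, 9.59, 7.82, 8.14 and 10.96, against 5.97, 6.71 and 7.19 for the lowest, the median and the highest mouse. Again mice 2 and 5 were highest. Gbp3 had levels of 7.04, 8.56, 7.06, 7.16 and 9.76, against 5.75, 6.29 and 6.89 for the lowest, the median and the highest mouse. The differences were 2.46 ± 0.29 for Gbp7, 2.26 ± 0.32 for Iigp1 and 1.61 ± 0.27 for Gbp3 (adjusted p = 1.24e-07, 1.76e-06 and 1.55e-05).

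The promoters of these genes are shown because the members moved together within mice. Interferon acts on such genes through the ISRE, searched here as GAAANNGAAA, and the GAS element, searched as TTCNNNGAA, each on both strands. Windows run from 250 bases before to 50 after the gene start, from RefSeq (GRCm38.p6). Of 12 measured GTPases, 8 had a window. The ISRE letters were in 7 of their 9 windows and in 3.44% of all 32851 windows, and the GAS letters were in 4 of 9 and in 8.30% of all. The list was chosen as interferon-inducible genes, so these shares do not show whether interferon acted in these mice, which was not tested. Matches are in capitals and are a description of the letters, not of binding. The windows of Gbp7, Tgtp1 and Igtp hold both motifs, and the first of 2 windows of Gbp3 holds overlapping ISRE matches. No ISRE match shown overlaps a GAS match.
Gbp7, chr3:142530086-142530385, + strand: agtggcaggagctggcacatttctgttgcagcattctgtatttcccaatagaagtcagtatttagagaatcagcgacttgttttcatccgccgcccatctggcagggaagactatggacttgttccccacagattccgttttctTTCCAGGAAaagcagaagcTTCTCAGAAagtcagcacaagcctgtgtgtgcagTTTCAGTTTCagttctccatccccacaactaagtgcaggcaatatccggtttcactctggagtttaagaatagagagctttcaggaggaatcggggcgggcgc
Gbp3, chr3:142559794-142560093, + strand: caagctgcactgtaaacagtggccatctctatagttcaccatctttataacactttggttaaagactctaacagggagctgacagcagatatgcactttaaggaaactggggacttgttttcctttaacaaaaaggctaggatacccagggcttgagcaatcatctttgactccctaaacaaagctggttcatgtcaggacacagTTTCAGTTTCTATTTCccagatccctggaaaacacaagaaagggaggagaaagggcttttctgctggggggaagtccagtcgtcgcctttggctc
Tgtp1, chr11:48992197-48992496, - strand: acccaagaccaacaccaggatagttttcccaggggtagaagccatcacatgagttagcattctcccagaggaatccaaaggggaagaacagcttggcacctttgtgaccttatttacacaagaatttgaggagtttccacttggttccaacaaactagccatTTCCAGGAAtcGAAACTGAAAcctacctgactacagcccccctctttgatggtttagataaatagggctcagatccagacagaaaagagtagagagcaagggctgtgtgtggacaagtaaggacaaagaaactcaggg
Igtp, chr11:58199306-58199605, + strand: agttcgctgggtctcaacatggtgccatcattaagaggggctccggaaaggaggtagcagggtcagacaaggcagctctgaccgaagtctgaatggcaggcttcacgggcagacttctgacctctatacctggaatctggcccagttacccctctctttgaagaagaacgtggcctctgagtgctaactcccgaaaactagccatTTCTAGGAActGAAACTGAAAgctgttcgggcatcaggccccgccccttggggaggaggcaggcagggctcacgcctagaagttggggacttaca

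For Tgtp1, a T-cell-specific GTPase by name, the 5 ppm levels were 8.56, 10.78, 9.30, 9.08 and 11.55, against 8.30, 8.82 and 9.61 for the lowest, the median and the highest mouse, and for Igtp they were 7.51, 9.22, 7.63, 7.88 and 10.45, against 7.34, 7.68 and 8.62 for the lowest, the median and the highest mouse. In both genes mice 1, 3 and 4 lay inside the range of the 15. Their differences were 0.97 ± 0.30 and 0.81 ± 0.31, and those of Gbp10, Gbp8 and Gbp2 were 2.05 ± 0.35, 1.99 ± 0.34 and 0.65 ± 0.20. Tgtp1, Igtp, Gbp10, Gbp8 and Gbp2 were named after their values were seen. Of the 12 GTPases, mouse 5 had the highest level of all 35 mice in 11, and mouse 2 was in the top 2 in 11. At least 1 of mice 1, 3 and 4 lay above all 15 in 5 genes. Without mouse 5 of the 5 ppm group 5 GTPases were called higher, without mouse 2 there were 6, and without both there were 5 with a median of 0.075 (the last chosen after seeing the data). The calls of Gbp2, Igtp and Tgtp1 ended without mouse 5, at 0.26, 0.33 and 0.55, and those of Igtp and Tgtp1 also without mouse 2, at 0.64 and 0.74. Gbp4, at -0.27, was the member called lower, and it lost the call without mouse 1, 2 or 3. Probes of these families can bind near-identical copies, so values of single members are uncertain. With the axis as a covariate 0 of 12 were called, while the median was 0.85.

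Of 25 interferon-stimulated antiviral genes, 8 were higher and 1 lower, with a median of 0.25. The largest was Ifih1, the RNA sensor MDA5, with levels of 6.45, 6.67, 6.81, 6.61 and 7.45, against 4.37, 5.38 and 5.95 for the lowest, the median and the highest mouse. All 5 mice lay above the 15, and the difference was 1.56 ± 0.22. Ifit1, which binds foreign RNA caps, was higher by 1.18 ± 0.21, Rsad2 (viperin) by 0.95 ± 0.23, Parp14 by 0.89 ± 0.15 and Eif2ak2, the kinase PKR, by 0.83 ± 0.15. With the axis 0 of 25 were called, with a median of 0.20. Left-out fits gave between 6 and 10 higher.

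**Figure D3:**
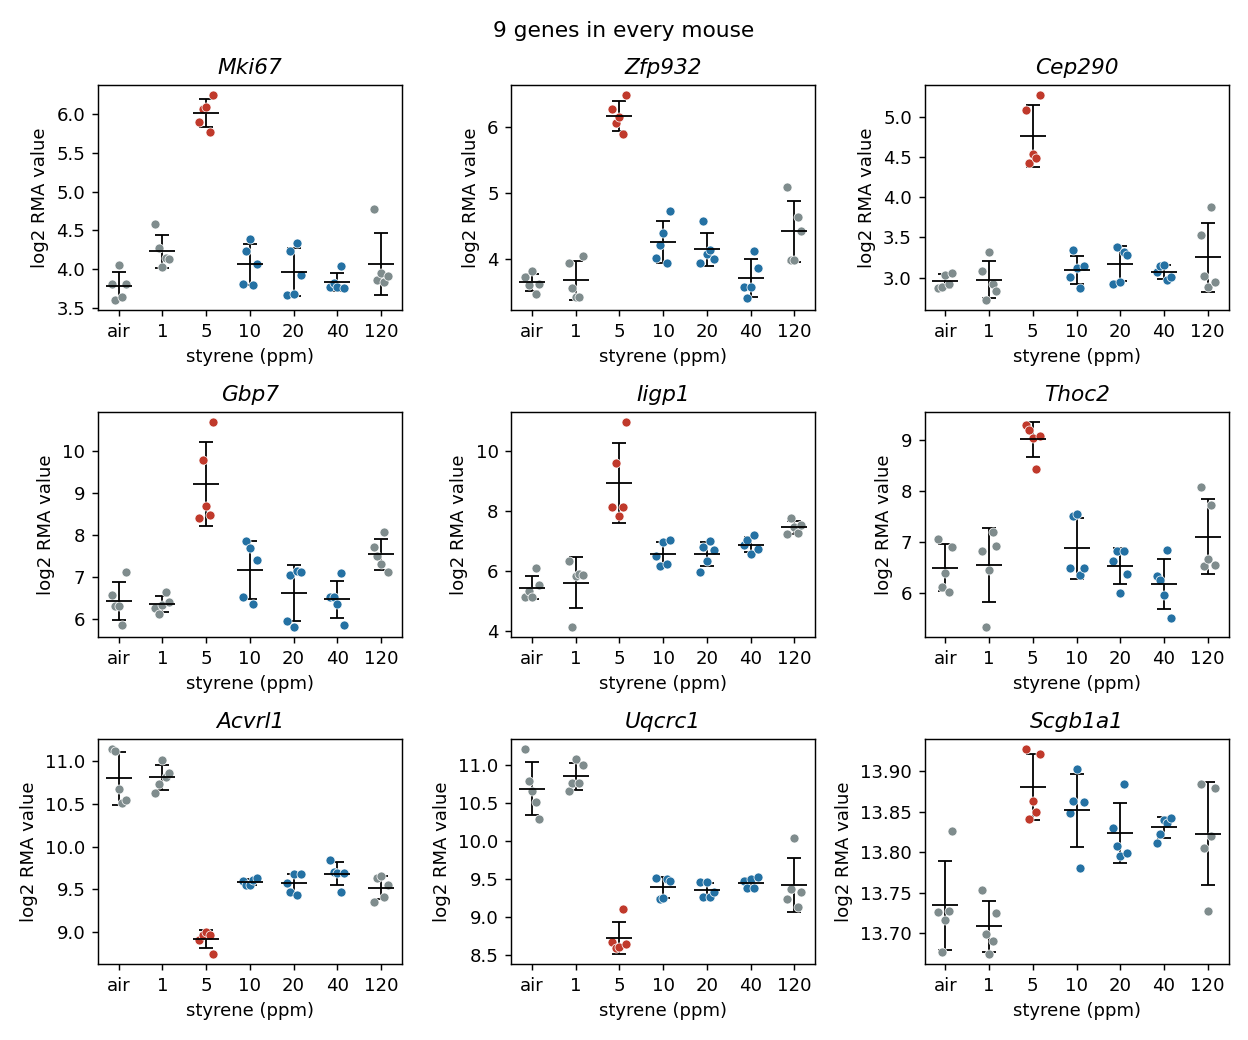
Log2 RMA value of 9 genes in every mouse of the 7 groups, by styrene concentration in ppm; points are mice and bars are means ± SD (n = 5). The 5 ppm mice (red) lie above all mice at 10 to 40 ppm (blue) for Mki67, Zfp932, Cep290, Gbp7, Iigp1 and Thoc2 and below them for Acvrl1 and Uqcrc1, with no such gap for Scgb1a1; Gbp7 and Iigp1 are highest in the same 2 mice.

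The 12 largest rises with all 5 mice above all 15 reached 2.58 log2 units. Ankrd12, an ankyrin repeat protein that binds nuclear receptor cofactors, had levels of 8.37, 8.41, 8.17, 7.42 and 8.51, against 5.09, 5.46 and 6.63 for the lowest, the median and the highest mouse. Thoc2, a subunit of the complex that exports mRNA, had levels of 9.31, 9.21, 9.04, 8.44 and 9.08, against 5.52, 6.48 and 7.54 for the lowest, the median and the highest mouse. Neither gene had overlapping groups. The differences were 2.58 ± 0.24 and 2.49 ± 0.27, and those of the others were 2.56 ± 0.26 for Gm14322, 2.46 for Gbp7 (above), 2.45 ± 0.20 for Zfp51, 2.44 ± 0.52 for Trim12c, 2.43 ± 0.31 for Cops2 (COP9 signalosome), 2.38 ± 0.22 for Zfp758, 2.37 ± 0.25 for Akap9 (a scaffold at the centrosome and Golgi), 2.33 ± 0.18 for Gm7072, 2.30 ± 0.25 for Zfp638 and 2.29 for Smc4 (above). Trim12c had the widest range of these 12 among the 15 mice, from 3.28 to 7.71. With the axis, Ankrd12, Thoc2, Gm14322, Zfp51, Zfp758, Akap9, Gm7072, Zfp638 and Smc4 stayed called, at 1.01 to 1.62, and Cops2, Gbp7 and Trim12c did not, at 0.78 (adjusted p = 0.167), 1.17 (adjusted p = 0.0719) and 2.60 (adjusted p = 0.109).

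Zinc finger genes of the Zfp series, most of which encode DNA-binding proteins, were grouped by name after the values were seen. Of 301 measured, 125 were higher and 65 lower (41.5% and 21.6%, beside 13.5% and 28.8% over all genes), with a median of 0.09. At least 2-fold higher were 59 of the 301, beside 573 of all 17097 genes. Zfp932 had levels of 6.27, 6.06, 6.15, 5.89 and 6.48, against 3.42, 4.03 and 4.73 for the lowest, the median and the highest mouse. Zfp820 had levels of 4.95, 5.36, 5.58, 4.78 and 5.74, against 3.28, 3.45 and 3.86 for the lowest, the median and the highest mouse. In neither gene did the groups overlap. The differences were 2.13 ± 0.15 and 1.79 ± 0.12 (adjusted p = 6.33e-12 and 6.33e-12). With the axis 30 of the 301 were called higher and 1 lower, the median was 0.03, and Zfp932 and Zfp820 were at 1.66 (adjusted p = 8.98e-06) and 1.44 (adjusted p = 8.98e-06). Probes of this family can also bind near-identical copies.

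Among 24 chromatin remodellers, 15 were higher and 3 lower (median 0.53), among them Chd1, which slides nucleosomes, at 1.32 ± 0.16, Smarcad1 at 1.31 ± 0.16 and Arid4b at 1.62 ± 0.21. Splicing factors and hnRNPs had 19 higher and 3 lower of 30 (median 0.53). Rbm25, which regulates splice site choice, had levels of 9.57, 9.60, 9.50, 9.01 and 9.54, against 6.47, 7.30 and 8.54 for the lowest, the median and the highest mouse. Its groups did not overlap, and its difference was 1.93 ± 0.24. Rbm39 and Srsf10, also splicing regulators, were at 1.06 ± 0.14 and 0.99 ± 0.13. For both lists the count fell to 0 with the axis as a covariate, with medians of 0.03 and -0.02. That fit called 188 of all 17097 genes.

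Centrosome and primary cilium genes followed the same direction, with 15 higher and 2 lower of 27 (median 0.41). Cep290, which builds the gate at the base of the cilium, had levels of 5.08, 4.42, 4.54, 4.49 and 5.27, against 2.87, 3.12 and 3.38 for the lowest, the median and the highest mouse. Its difference was 1.65 ± 0.13 (adjusted p = 1.81e-10), and the groups lay more than 1 log2 unit apart. Pcm1, of the centriolar satellites, was higher by 1.55 ± 0.18 and Cep70 by 1.28 ± 0.17. Cep290 was the list's single call with the axis, at 1.22 (adjusted p = 0.000244). Of 21 markers of ciliated cells 8 were higher and 0 lower (median 0.04). Ccdc39, which sets the spacing of dynein arms, had levels of 6.69, 6.33, 6.35, 6.19 and 7.02, against 3.64, 4.22 and 5.47 for the lowest, the median and the highest mouse, with no overlap. Ccdc39 was higher by 2.26 ± 0.22, Rsph4a (radial spokes) by 1.31 ± 0.20 and Cfap43 by 1.41 ± 0.23. Foxj1, the transcription factor that defines these cells, was not called, at -0.36 ± 0.25, with levels of 7.91, 6.60, 6.41, 7.002 and 7.19, of which mouse 3 alone lay outside the range of 6.53 to 8.51. Its sign turned with the axis, at 0.20. Of the list, 1 gene, Ccdc39, stayed called with the axis, at 1.44 (adjusted p = 0.00642).

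Other rises were spread over several functions. Of 14 heat shock proteins and chaperones, 5 were higher and 1 lower (median 0.34). Hsp90aa1, the inducible cytosolic HSP90, had levels of 12.24, 12.14, 12.37, 11.88 and 12.46, against 9.29, 10.57 and 11.69 for the lowest, the median and the highest mouse. All 5 mice lay above the 15, and the difference was 1.69 ± 0.27. Hspa4l was higher by 1.33 ± 0.26 and Hspa4 by 0.50 ± 0.13. In the endoplasmic reticulum stress list 3 were higher and 4 lower of 20 (15% and 20%, beside 13.5% and 28.8% over all genes). Its chaperone Hsp90b1 (GRP94) was at 1.01 ± 0.17 and Dnajc3 at 0.82 ± 0.16, while Chac1, a target of the same stress, was at -0.68 ± 0.15. Genes named after their values were seen include Tex15 at 2.14 ± 0.18, the noncoding Dubr at 2.19 ± 0.24, Rif1 (replication timing) at 1.97 ± 0.21, the kinase Rock1 at 2.000 ± 0.18, the growth factor Igf1 at 1.98 ± 0.23 and the chloride channel Cftr at 1.63 ± 0.19. Of these genes, Tex15, Dubr, Rif1, Rock1 and Igf1 were also called with the axis, at 1.62, 1.92, 1.04, 1.18 and 1.25, and Cftr and Hsp90aa1 were not, at 0.82 (adjusted p = 0.0706) and 0.49 (adjusted p = 0.492). Hspa4 turned to -0.07 with the axis, and Hspa4l, Hsp90b1 and Dnajc3 were at 0.19, 0.03 and 0.05. The fit with the axis called 0 of the heat shock list and 0 of the endoplasmic reticulum list, with medians of 0.16 and -0.14.

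**Figure D4:**
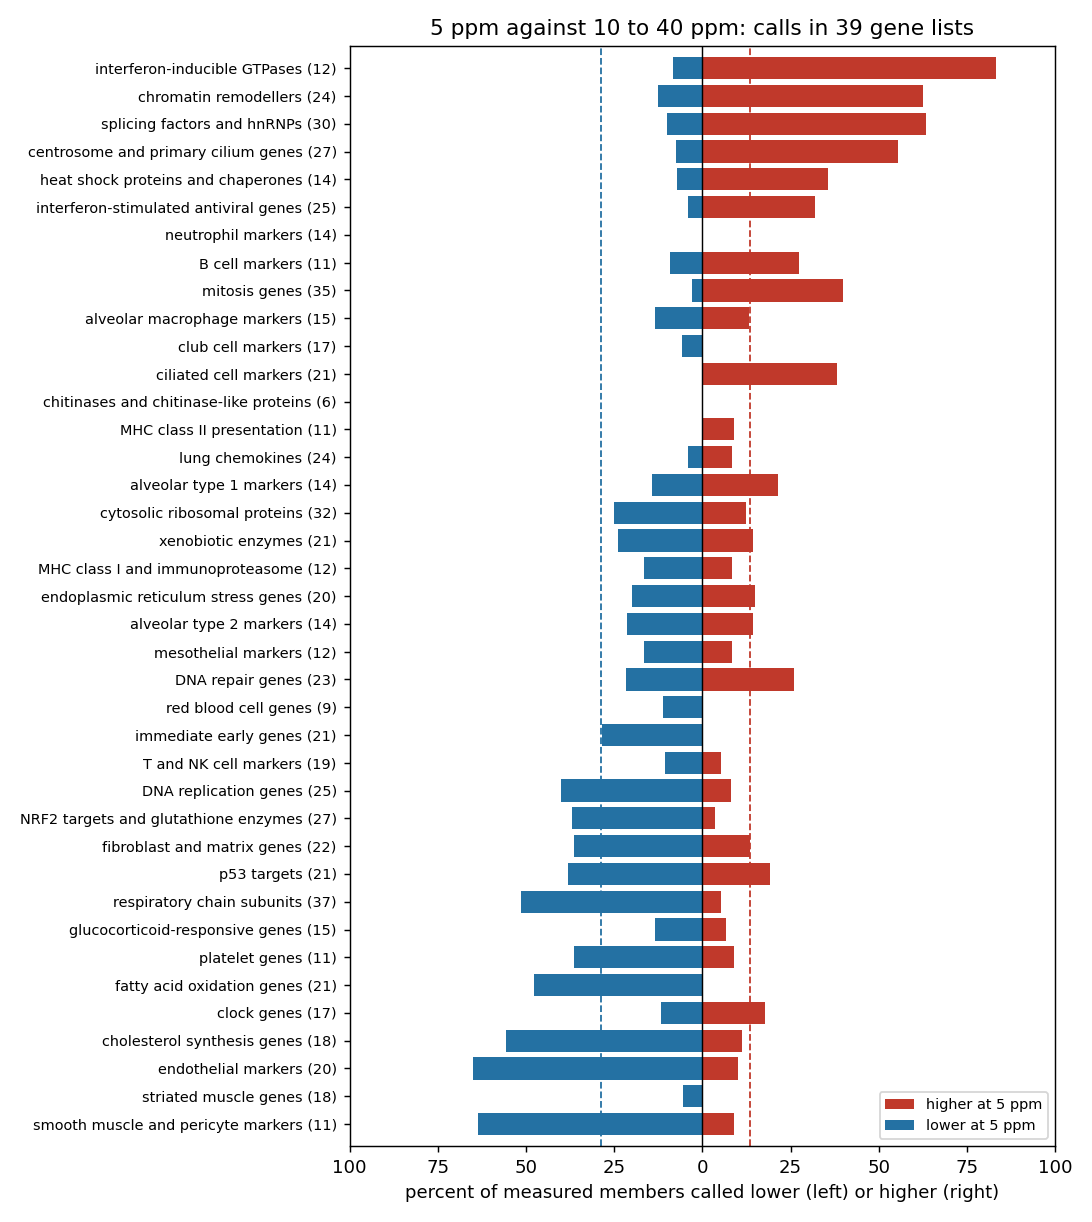
Percent of the measured members of 39 gene lists (number measured in brackets) called lower (blue, left) or higher (red, right) at 5 ppm than at 10 to 40 ppm; dashed lines mark the shares over all 17097 genes, 28.8% lower and 13.5% higher. Interferon-inducible GTPases, chromatin remodellers, splicing factors and centrosome genes lie farthest to the right, and endothelial and smooth muscle markers farthest to the left.

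Falls were smaller than rises, and endothelial markers were often among them. Of 20 endothelial markers 13 were lower and 2 higher at 5 ppm, with a median of -0.34 and a range of -0.70 to 0.90. In 8 of the 20 all 5 mice lay below all 15, beside 6.89% of all genes. In 1 all 5 lay above all 15, beside 6.71% of all genes. Acvrl1, the BMP receptor ALK1 of vessels, had levels of 8.90, 8.96, 9.002, 8.96 and 8.74, against 9.43, 9.60 and 9.85 for the lowest, the median and the highest mouse. Plvap, which forms the diaphragms of endothelial pores, had levels of 10.36, 10.15, 10.39, 10.59 and 10.25, against 10.77, 11.03 and 11.32 for the lowest, the median and the highest mouse. Cdh5, the cadherin of endothelial junctions, had levels of 10.01, 9.85, 10.11, 10.17 and 10.20, against 10.23, 10.50 and 10.71 for the lowest, the median and the highest mouse. In all 3 genes the groups did not overlap. The differences were -0.70 ± 0.09, -0.68 ± 0.09 and -0.41 ± 0.09, and Esam, a junction protein, was at -0.42 ± 0.05 (adjusted p = 2.15e-07, 1.25e-06, 0.00034 and 6.24e-07). With the axis 3 of the list were called lower, Cdh5, Kdr and Flt1, and the median was -0.32. These 3 genes were named after their values were seen.

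In that fit Cdh5 was at -0.55 (adjusted p = 0.0344), and the VEGF receptors Kdr and Flt1 were at -0.56 (adjusted p = 0.0401) and -0.61 (adjusted p = 0.0341). Without the axis Kdr and Flt1 were not called, at -0.13 ± 0.11 and -0.15 ± 0.12. Other genes lower in both fits and named after their values were seen were Ace, the angiotensin-converting enzyme of lung capillaries, Ntn1 (netrin) and Itga9. Ace was at -0.72 ± 0.09 and -0.53 with the axis, Ntn1 at -0.83 ± 0.08 and -0.51, and Itga9 at -0.40 ± 0.15 and -0.94. The levels of Ace were 6.33, 5.95, 6.38, 6.73 and 6.41 at 5 ppm, against 6.82, 7.08 and 7.27 for the lowest, the median and the highest mouse, with no overlap.

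Smooth muscle and pericyte markers had 7 lower and 1 higher of 11 (median -0.51). Notch3, a receptor of mural cells, was at -0.58 ± 0.11, Pdgfrb, the pericyte receptor for PDGF, at -0.53 ± 0.12 and the actin gene Actg2 at -0.98 ± 0.24. With the axis the median was 0.02, 0 were called, and Actg2 turned to 0.03. Fibroblast and matrix genes were mixed, with 8 lower and 3 higher of 22: Col6a1 was at -0.48 ± 0.10 and fibronectin Fn1 at -0.46 ± 0.11, while Postn, the matrix protein periostin, was at 1.34 ± 0.22. These are 13.6% higher and 36.4% lower, beside 13.5% and 28.8% over all genes. Adjusted for the axis, 0 of the list were called, the median was -0.01, and Postn, Col6a1 and Fn1 were at 0.15, -0.21 and -0.53.

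The 12 largest falls with all 5 mice below all 15 began with Ccn5, a secreted matrix regulator, whose levels were 6.94, 7.44, 7.07, 7.20 and 6.55, against 7.79, 8.22 and 8.72 for the lowest, the median and the highest mouse. Dhcr7, the last enzyme of cholesterol synthesis, had levels of 5.33, 5.24, 5.16, 5.36 and 5.23, against 5.81, 6.40 and 6.80 for the lowest, the median and the highest mouse. In Dhcr7 the 5 mice lay close together. The differences were -1.19 ± 0.20 for Ccn5, -1.09 ± 0.15 for Dhcr7, -1.02 ± 0.15 for Tmem88 (a Wnt inhibitor), -1.004 ± 0.17 for Gamt (creatine synthesis), -0.99 ± 0.25 for Vtn (vitronectin), -0.96 ± 0.13 for Ppp1r14a (an inhibitor of myosin phosphatase), -0.95 ± 0.14 for Ltbp2 (elastic fibres), -0.93 ± 0.17 for Ptk7 (planar polarity), -0.93 ± 0.16 for Hoxb5, -0.92 ± 0.15 for Inka1, -0.90 ± 0.19 for Fancc (Fanconi anaemia pathway) and -0.89 ± 0.16 for Nol3 (an apoptosis repressor). With the axis 1 of these 12, Ppp1r14a, stayed called, at -0.73 (adjusted p = 0.0439), and Vtn turned to 0.16.

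**Figure D5:**
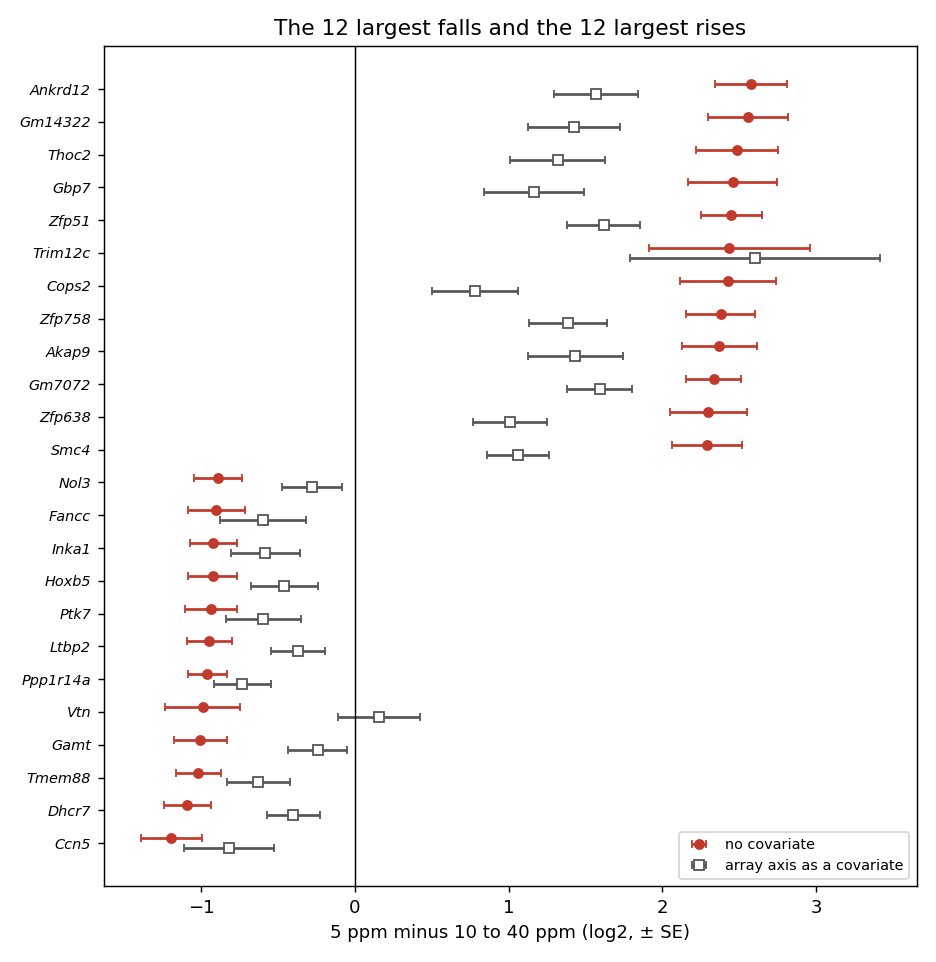
Difference between 5 ppm and 10 to 40 ppm (log2, ± SE) of the 12 largest falls and the 12 largest rises, without a covariate (red circles) and adjusted for the array axis (open squares). The rises of up to 2.58 shrink for 11 of 12 genes and stay above 0, Trim12c does not shrink, and Vtn crosses 0 from -0.99 to 0.16.

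In 3 metabolic lists the share called lower was above the 28.8% over all genes. It was 51.4% for the respiratory chain, 47.6% for fatty acid oxidation and 55.6% for cholesterol synthesis. The shares called higher were 5.41%, 0% and 11.1%, beside 13.5% over all genes. Respiratory chain subunits had 19 lower and 2 higher of 37 (median -0.22). Uqcrc1, a core subunit of complex III, had levels of 8.68, 8.60, 8.61, 9.10 and 8.64, against 9.24, 9.45 and 9.52 for the lowest, the median and the highest mouse. Mouse 4 was nearest to the others, and the groups did not overlap. Uqcrc1 was at -0.67 ± 0.11, the ATP synthase subunit Atp5d at -0.57 ± 0.08 and Sdhc of complex II at -0.48 ± 0.09. Fatty acid oxidation had 10 lower and 0 higher of 21 (median -0.27), with Eci1 at -0.76 ± 0.12, Acads at -0.68 ± 0.12 and Acaa1a at -0.48 ± 0.09, enzymes of the mitochondrial or peroxisomal cycle. Cholesterol synthesis had 10 lower and 2 higher of 18 (median -0.32), with Dhcr7 above, mevalonate kinase Mvk at -0.78 ± 0.13 and its regulator Srebf2 at -0.57 ± 0.10. With the axis 0 genes of the 3 lists were called, and the medians were 0.00, -0.12 and -0.34.

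Of genes tied to styrene's own metabolism, Cyp2f2, Cyp2e1 and Cyp2b10 did not pass the test, and Ephx1 and Cyp1a1 were lower. Cyp2f2, the main styrene-oxidising P450 of mouse lung, had levels of 13.15, 12.98, 12.85, 13.06 and 13.05, against 12.98, 13.07 and 13.25 for the lowest, the median and the highest mouse. These overlapped, and the difference of -0.07 ± 0.05 was not called. Cyp2e1, a P450 that also oxidises styrene, ranged from 6.20 to 10.81 among the 15 and was at -1.33 ± 0.61, not called, with a sign that turned under the axis (0.30); Cyp2b10 was at -0.01 ± 0.10. Of 21 xenobiotic enzymes 3 were higher and 5 lower (14.3% and 23.8%, beside 13.5% and 28.8% over all genes). Cyp1a1, induced through the aryl hydrocarbon receptor, had levels of 6.18, 4.78, 4.85, 4.63 and 4.49, against 5.05, 6.37 and 7.28 for the lowest, the median and the highest mouse. Mouse 1 alone lay within the range of the 15. Cyp1a1 was at -1.37 ± 0.35 (adjusted p = 0.00215), and with the axis it was at -1.46 (adjusted p = 0.185). Epoxide hydrolase Ephx1, which opens styrene oxide, was at -0.43 ± 0.08 and the aldehyde dehydrogenase Aldh2 at -0.31 ± 0.06. Under the axis covariate 0 of the 21 xenobiotic enzymes were called (median -0.17), and Ephx1 and Aldh2 were at -0.23 and -0.14.

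Of 27 NRF2 targets and glutathione enzymes 10 were lower and 1 higher (median -0.20). Nqo1, the quinone reductase used as a readout of NRF2, had levels of 5.67, 5.05, 5.49, 5.55 and 5.68, against 5.65, 6.16 and 7.13 for the lowest, the median and the highest mouse. The groups overlapped at their edge. Nqo1 was at -0.70 ± 0.16 (adjusted p = 0.000642), glutathione transferase Gstp1 at -0.42 ± 0.10 and Osgin1 at -0.41 ± 0.09, while Gsta4 was not called (-0.13 ± 0.13). With the axis 0 were called, with a median of -0.12. Markers of club cells had 1 call of 17: Cldn10, a claudin, at -0.31 ± 0.12, and 0 with the axis (-0.04 for Cldn10). Scgb1a1 was at 0.05 ± 0.04 with levels of 13.93, 13.84, 13.86, 13.85 and 13.92, against 13.78, 13.84 and 13.90 for the lowest, the median and the highest mouse, and its sign turned with the axis (-0.03).

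Immediate early genes had 6 lower and 0 higher of 21 (median -0.16), a share lower of 28.6% beside 28.8% over all genes. The transcription factor Jun had levels of 9.05, 8.89, 8.94, 9.32 and 8.78, against 9.17, 9.64 and 9.93 for the lowest, the median and the highest mouse. Most 5 ppm mice lay under the 15, with mouse 4 inside their range. Jun was at -0.54 ± 0.09, Ier2 at -0.55 ± 0.11 and Klf2, a factor of sheared endothelium, at -0.65 ± 0.15. The p53 targets had 8 lower and 4 higher of 21 (38.1% and 19.0%, beside 28.8% and 13.5% over all genes). Sesn2 was at -0.57 ± 0.11, the cyclin Ccng1 at 1.20 ± 0.19 and Trp53inp1 at 0.996 ± 0.19. Cdkn1a, the cell cycle inhibitor p21, was not called (-0.36 ± 0.25). DNA repair had 6 higher and 5 lower of 23 (26.1% and 21.7%). Among the higher were the kinase Atr at 1.56 ± 0.22, Lig4 (end joining) at 1.19 ± 0.15 and Rad50 at 1.19 ± 0.18. DNA replication had 10 lower and 2 higher of 25 (40% and 8%, median -0.19). Its helicase subunit Mcm2 was at -0.57 ± 0.13, the clamp loader Rfc5 at -0.47 ± 0.11 and the polymerase Pola1 at 1.21 ± 0.18. With the axis 0 genes of these 4 lists were called, and Trp53inp1 turned to -0.02.

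Clock and glucocorticoid genes had few calls. Clock genes had 3 higher and 2 lower of 17: Clock was at 1.15 ± 0.18, Rora at 1.10 ± 0.19 and Cry2 at -0.32 ± 0.11. Dbp and Arntl, which peak at opposite times of day, were not called, at -0.93 ± 0.70 and 0.29 ± 0.33. Of 15 glucocorticoid-responsive genes 1 was higher and 2 lower: Klf9 at 0.58 ± 0.18, Per1 at -0.74 ± 0.26 and Ddit4 at -0.62 ± 0.23. The axis fit called 0 genes of the clock list and 0 of the glucocorticoid list (medians -0.23 and -0.18). Rora turned to -0.03 and Klf9 to -0.32.

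The shares of alveolar markers called were near or below those over all genes (13.5% higher and 28.8% lower), except that 21.4% of type 1 markers were higher. Of 14 alveolar type 2 markers 2 were higher and 3 lower: complement Hc was at 1.04 ± 0.23, fatty acid synthase Fasn at -0.62 ± 0.13 and the lipid pump Abca3 at -0.32 ± 0.08, while Sftpc was at 0.00 ± 0.04. Alveolar type 1 markers had 3 higher and 2 lower of 14, with Akap5 at 1.05 ± 0.22, Clic5 at 0.45 ± 0.11 and Gprc5a at -0.35 ± 0.09. Among 15 alveolar macrophage markers 2 were higher and 2 lower. The mannose receptor Mrc1 was at 1.19 ± 0.21, the proton pump subunit Atp6v0d2 at 1.06 ± 0.18 and the lipid carrier Fabp5 at -0.26 ± 0.07. With the axis 0 genes of these 3 lists were called, and Akap5 and Clic5 turned to -0.09 and -0.15.

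Neutrophil markers had 0 calls of 14, but the 5 ppm mice differed widely, with list medians from -0.77 to 1.52 against the mean of the 15, and fits with a mouse left out called 0 to 4 higher and up to 1 lower. Of 11 B cell markers 3 were higher and 1 lower, with Ebf1 at 0.52 ± 0.12, Ms4a1 (CD20) at 1.36 ± 0.49 and Bank1 at 0.85 ± 0.30. The T and NK list had 1 higher and 2 lower of 19: Cd3e at -0.50 ± 0.15, Thy1 at -0.45 ± 0.17 and Klrd1 at 0.56 ± 0.19. Platelet genes had 4 lower, such as the integrins Itga2b at -0.55 ± 0.15 and Itgb3 at -0.41 ± 0.14, and 1 higher, P2ry12 at 0.95 ± 0.14, of 11. Once adjusted for the axis, 0 genes of the neutrophil list, 0 of the B cell list, 0 of the T and NK list and 0 of the platelet list were called, with medians of 0.11, 0.24, 0.14 and -0.40. Ebf1, Ms4a1, Bank1 and P2ry12 were then at 0.24 (adjusted p = 0.571), 1.02 (adjusted p = 0.558), 0.30 (adjusted p = 0.813) and 0.74 (adjusted p = 0.0744), and Thy1 turned to 0.22.

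Among smaller lists, 1 of 9 red blood cell genes was lower (Alas2, of haem synthesis, at -0.45 ± 0.15), 1 of 11 class II genes was higher (the protease Ctss at 0.46 ± 0.18), and 1 of 12 class I genes was higher and 2 lower (Erap1 at 0.51 ± 0.11, Tapbp at -0.23 ± 0.06 and Psmb10 at -0.29 ± 0.09). Mesothelial markers had 1 higher and 2 lower of 12 (Gpm6a at 0.68 ± 0.17, Krt19 at -0.23 ± 0.08 and Upk3b at -0.50 ± 0.20). Lung chemokines had 2 higher and 1 lower of 24: Cxcl10, an interferon-induced chemokine, was at 0.49 ± 0.17, Cxcl15 at 0.17 ± 0.07 and Cxcl12 at -0.43 ± 0.12. Chitinases had 0 calls of 6, and striated muscle genes had 1 lower of 18 (Atp2a1 at -0.31 ± 0.10). Cytosolic ribosomal proteins had 4 higher and 8 lower of 32, such as Rpl23 at 0.24 ± 0.06, Rplp2 at -0.25 ± 0.05 and Rps9 at -0.24 ± 0.05. In the axis fit 0 genes of these 8 lists were called; the medians were -0.01 for red blood cells, 0.14 for class II, 0.06 for class I, 0.09 for mesothelium, 0.32 for chemokines, -0.27 for chitinases, 0.31 for striated muscle and -0.03 for ribosomal proteins. Signs turned for Ctss, Psmb10, Gpm6a, Cxcl15 and Atp2a1, at -0.09, 0.03, -0.06, -0.06 and 0.01. The reference genes Gapdh and Actb were not called, at -0.13 ± 0.06 and -0.04 ± 0.04.

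Calls of 17 more named genes ended when 1 mouse was left out. Their directions stayed the same in these fits. Alas2 was not called without 5 ppm mice 1 and 3, each in turn (difference -0.36 to -0.33). Bank1 was not called without 5 ppm mice 2 and 3, each in turn (difference 0.61 to 0.79). Cldn10 was not called without 5 ppm mice 1, 2, 3 and 5, 10 ppm mice 1 and 4, 20 ppm mice 1 and 3 and 40 ppm mice 2, 3 and 5, each in turn (difference -0.33 to -0.27). Cry2 was not called without 5 ppm mouse 2 (difference -0.24). Ctss was not called without 5 ppm mice 2 and 3, each in turn (difference 0.38 to 0.44). Cxcl10 was not called without 5 ppm mouse 5 (difference 0.20). Cxcl15 was not called without 5 ppm mice 1, 2, 3, 4 and 5, 10 ppm mice 1, 4 and 5, 20 ppm mice 1, 3 and 5 and 40 ppm mice 1, 3, 4 and 5, each in turn (difference 0.15 to 0.18). Ddit4 was not called without 5 ppm mice 2, 3 and 4, each in turn (difference -0.60 to -0.54). Itga9 was not called without 5 ppm mice 2 and 5, each in turn (difference -0.39 to -0.37). Itgb3 was not called without 5 ppm mouse 2 (difference -0.34). Klrd1 was not called without 5 ppm mice 2, 3 and 5, each in turn (difference 0.45 to 0.49). Krt19 was not called without 5 ppm mice 2 and 3, each in turn (difference -0.21 to -0.18). Ms4a1 was not called without 5 ppm mice 2, 3 and 4, each in turn (difference 1.15 to 1.20). Per1 was not called without 5 ppm mice 2 and 4, each in turn (difference -0.58 to -0.55). Psmb10 was not called without 5 ppm mouse 1 (difference -0.20). Thy1 was not called without 5 ppm mice 1, 2 and 5, 10 ppm mice 1 and 4, 20 ppm mice 3 and 5 and 40 ppm mouse 3, each in turn (difference -0.44 to -0.29). Upk3b was not called without 5 ppm mice 3, 4 and 5, 10 ppm mice 1, 2 and 4, 20 ppm mice 3 and 5 and 40 ppm mice 1 and 5, each in turn (difference -0.52 to -0.39).

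Gene span, which the values did not define, was longer among the higher genes. By the RefSeq table (GRCm38.p6), the median span of a gene from first to last base was 43.2 kb for the higher genes, 16.1 kb for the lower and 20.2 kb for all genes, with a span for 99.1% of genes. The quartiles were 21 and 88.3 kb for the higher genes and 7.1 and 36.3 kb for the lower, so the ranges overlap. A check of promoter base composition was set aside as void for want of coverage, and no conclusion is drawn from it. Only 79.9% of the higher genes and 79.0% of all genes had a promoter sequence. With genes divided into 4 equal sets by mean level over all arrays, from the dimmest to the brightest, 130, 670, 844 and 662 genes were higher and 238, 825, 1800 and 2063 lower. Of called genes with several probe sets, 1062 of 1461 higher genes and 1289 of 2145 lower genes had another probe set called in the same direction, and 26 and 34 had a probe set called in the other.

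Placed among all 7 groups, the 5 ppm mice lay outside the range of the other 30 mice for many of these genes. All 5 lay above all 30 for 715 genes (4.18%) and below all 30 for 448 (2.62%). Mki67, Zfp932, Cep290 and Thoc2 are of the first kind: Thoc2 had means of 6.50 in air, 6.54 at 1 ppm, 6.87 at 10 ppm, 6.53 at 20 ppm, 6.18 at 40 ppm and 7.11 at 120 ppm, beside 9.02 at 5 ppm. Acvrl1 had means of 10.80 in air, 10.81 at 1 ppm, 8.91 at 5 ppm and 9.58, 9.57, 9.68 and 9.52 from 10 to 120 ppm. Against 120 ppm, the difference at 5 ppm was 1.95 for Mki67, 1.91 for Thoc2 and -0.61 for Acvrl1, and all 3 were called (adjusted p = 8.83e-10, 0.000283 and 0.000294). For these genes the order of the groups did not follow the concentration.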

How the data were processed

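The values are log2 probe set summaries deposited by the authors as a series matrix table of 35 arrays; the submitters' processing notes name RMA and Partek with no versions, and their settings are not given in the sources used here. The labels' protocols describe a Trizol extraction, a column clean-up and a 3' expression kit. The table held 45037 probe sets. Symbols came from the platform annotation: 28898 probe sets had 1 symbol, 551 several and 15588 none, and 28689 matched the reference gene table by Entrez identifier. The probe set with 1 symbol and the highest mean over all arrays stood for each of 17097 genes, and no dim gene was left out.

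A model with a mean for each of 7 groups was fitted to all genes with limma 3.58.1 in R 4.3.3 (lmFit and eBayes), and p-values were adjusted by Benjamini-Hochberg over all genes. The contrast gave 10, 20 and 40 ppm equal weight. All tests are two-sided. Array measures were compared with an exact permutation test. The steps were tested on simulated data in which each gene varied independently, with no shared array axis. That test therefore does not cover the effect of the axis on the calls. The labels number the mice as biological replicates, and p-values measure only the spread between these mice. Precision is limited by the number of arrays, since arrays have no read depth.

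The comparison, the 39 gene lists (746 of 844 members measured) and the genes named were chosen with earlier results of these data known. Named genes were the 12 largest rises and 12 largest falls among called genes with all 5 mice outside the range of the 15. To these were added up to 3 called genes per list by adjusted p and the 3 lowest p among 10, 20 and 40 ppm. There were also 15 genes of interest, and genes named after their values were seen, not all of which are marked as such above. Alternatives changed the probe set choice, the normalization, the filter on dim genes, the model, the thresholds, the covariates and the mice included.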

Additional observations from a re-analysis of the deposited data

Results flagged for a closer look

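A single mouse stood far from the other 4 of its group in 41 of 688 groups of 5 tested for the named genes and the 4 array measures. The rule was the ratio of its gap to the group's range (critical value 0.71). By chance about 1 in 20 would be flagged. Values are log2 levels, with the nearest mouse of the group beside them.

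At 5 ppm they were mouse 1 for Cyp1a1 (6.18, nearest 4.85) and Sesn2 (6.66, nearest 6.12), and mouse 2 for Flt1 (7.98, nearest 8.37). The list went on with mouse 4 for Gm7072 (6.08, nearest 6.66), Rbm25 (9.01, nearest 9.50), Rfc5 (5.78, nearest 5.18), Smarcad1 (7.31, nearest 7.82) and Uqcrc1 (9.10, nearest 8.68), and mouse 5 for Fancc (4.30, nearest 5.09). At 10 ppm they were mouse 1 for Fasn (11.09, nearest 10.56), and mouse 2 for Ephx1 (9.95, nearest 10.08), Igf1 (7.74, nearest 7.21), Lig4 (5.08, nearest 4.44), Ms4a1 (4.61, nearest 6.02), Parp14 (7.80, nearest 7.37) and Tex15 (5.05, nearest 3.99). The list went on with mouse 3 for Jun (9.31, nearest 9.64) and Trim12c (3.28, nearest 6.06), and mouse 5 for Gprc5a (10.17, nearest 9.82). At 20 ppm they were mouse 1 for Atp2a1 (4.17, nearest 3.73) and Per1 (8.62, nearest 7.59), and mouse 2 for Cyp2b10 (11.12, nearest 11.30) and Pdgfrb (6.49, nearest 6.93). The list went on with mouse 3 for Cxcl10 (3.83, nearest 3.31), Dubr (3.60, nearest 4.55), Klf9 (9.66, nearest 10.37), Lig4 (3.63, nearest 4.21), Rsph4a (4.04, nearest 5.09) and Trp53inp1 (7.71, nearest 8.80). At 40 ppm they were mouse 1 for Apoa1 (9.35, nearest 4.94), Ptk7 (7.02, nearest 6.69) and Ttr (9.49, nearest 4.66), and mouse 2 for Cenpe (3.54, nearest 3.28) and Mvk (5.77, nearest 6.04). The list went on with mouse 3 for Atp6v0d2 (6.81, nearest 7.19), and mouse 4 for Cfap43 (6.83, nearest 5.61), Cftr (4.97, nearest 4.62) and Mki67 (4.04, nearest 3.82). The list went on with mouse 5 for Akap5 (8.50, nearest 8.87), Clock (6.73, nearest 7.23) and Foxj1 (6.78, nearest 7.52).

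Mouse 3 at 20 ppm, which had the highest score of the 15 on the array axis (0.61), held 6 of the 10 cases of its group, and mouse 1 at 40 ppm held the 2 largest gaps, in Apoa1 and Ttr, genes expressed mainly in liver.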

How the results depend on the processing

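The count of genes called between 5 ppm and 10 to 40 ppm (7232), and those against 10, 20 and 40 ppm singly (4658, 6892 and 5680), stayed within 1.5 times under quantile normalization, averaged probe sets per gene, median centring, the filter on dim genes, the fit of only the groups compared, array weights, other priors and the interquartile range as a covariate. With every probe set tested alone the 4 counts were 11631, 7317, 11019 and 8962. At an adjusted p under 0.01 the counts against 10 and 40 ppm were 2639 and 3778. At least 1.5-fold calls numbered 1894, 1473, 2629 and 2010, and 71.4% of the 1894 were higher, beside 31.9% of the 7232. Adjusted for the array axis, the counts were 188, 153, 13 and 247, with 58.5% of the 188 higher, and an axis found without the 5 ppm mice, chosen after seeing the data, gave 278. Leaving out each mouse gave 6313 to 7346, 3359 to 4996, 5475 to 7029 and 4663 to 5950. The array median differed by 0.040 with all probe sets and -0.068 with 1 probe set per gene, and the interquartile range by 0.086 and 0.038. The cause was not tested.

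Deviations from the group means had a mean correlation of 0.063 for the same mouse number (-0.378 to 0.441) and -0.015 for other numbers (-0.409 to 0.453). These ranges overlap widely, and whether mouse numbers pair the samples was not tested. With the replicate number as a block the counts were 7365, 4698, 7029 and 5817, and among the named genes the block ended the call of Cldn10 (adjusted p = 0.0517) and brought one for Cyp2e1 (adjusted p = 0.0349).

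Of 147 named genes that were called, 27 stayed called with the axis, 106 lost the call and 14 changed sign. Signs turned with the axis for Actg2 (0.0339), Akap5 (-0.0878), Apoa1 (1.46), Atp2a1 (0.00653), C130075A20Rik (-0.00536), Clic5 (-0.149), Crip1 (0.0200), Ctss (-0.0903), Cxcl15 (-0.064), Cyp2e1 (0.303), Foxj1 (0.202), Gapdh (0.078), Gpm6a (-0.0642), Hspa4 (-0.072), Klf9 (-0.325), Psmb10 (0.0306), Rora (-0.0285), Rpa3 (0.0741), Scgb1a1 (-0.0316), Thy1 (0.222), Trp53inp1 (-0.0193), Ttr (2.47) and Vtn (0.156). Actb was at 0.0742 with its probe sets averaged. Values near 0 changed sign elsewhere. Birc5 was between -0.0566 and 0.166 with each mouse left out and at -0.00134 without the 40 ppm group. Crip1 was at 0.00371 without the 20 ppm group. Cyp2b10 was between -0.0432 and 0.00976 with each mouse left out and at 0.0321 without the 20 ppm group. Rpa3 was at 0.0963 without the 20 ppm group. Sftpc was between -0.0042 and 0.00367 with each mouse left out and at 0.011 without the 40 ppm group.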

Other observations

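Apoa1 and Ttr, plasma protein genes expressed mainly by liver and named after their values were seen, varied widely among the 15 mice: Apoa1 ran from 3.22 to 9.35 with a median of 4.39, and Ttr from 2.38 to 9.49 with a median of 4.33. At 5 ppm the levels were 3.17, 4.77, 3.68, 4.13 and 3.19 for Apoa1 and 2.71, 5.65, 3.13, 4.34 and 3.03 for Ttr. Neither was called (-1.12 ± 0.84 and -0.94 ± 1.04).

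The main limit is that concentration and the array axis cannot be separated for the 5 ppm mice, whose scores do not overlap those of 10 to 40 ppm. RNA quality was not measured here. The labels give no scan or extraction group. Each concentration had 5 mice of an outbred stock, and the conflict over the length of exposure was not resolved.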
